A study of Mus musculus with 6 samples.

Results

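To describe the contractile program of basal cells in the pubertal mouse mammary gland, 9 smooth muscle contractile genes (Acta2, Actg2, Myh11, Mylk, Cnn1, Tagln, Myl9, Lmod1 and Tpm2) and the oxytocin receptor gene Oxtr were followed across 6 RNA sequencing libraries. The 10 genes were chosen by symbol from a list of smooth muscle genes, out of 55291 symbols in the count files. Earlier results of these data were known at that choice, so the shares of all genes given below are description only. All 10 had reads in every library and all 10 passed the filter on low counts, which kept 17268 genes. The libraries came from sorted cells with high CD49f (integrin α6) from mammary glands of 6-week-old mice carrying 1 reporter allele of Adgra3 (Adgra3-lz/+), the gene for the adhesion receptor Gpr125. Cells were separated by their cleavage of FDG, a fluorogenic substrate of the β-galactosidase that this allele fuses to Gpr125, into Gpr125-negative cells, Gpr125+ cells from the distal part of the gland that holds the terminal end buds (TEB-distal), and Gpr125+ cells from its nipple-proximal part, with 2 libraries each. The labels give 5 mice pooled per sample and no region for the Gpr125-negative cells, and cells positive for CD31, CD45 or Ter119 were gated out. The study's staining panel also lists an antibody to CD140a, the product of the fibroblast gene Pdgfra.

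Myoepithelial cells are the contractile cells of the mammary epithelium. They lie on the basement membrane around ducts and alveoli and share with smooth muscle a set of actin, myosin and thin filament proteins. When oxytocin binds its receptor on these cells, calcium rises, calmodulin activates myosin light chain kinase, and phosphorylated myosin pulls on actin, which squeezes milk toward the nipple. In the growing gland of puberty, the basal layer of the terminal end bud is a sheet of cap cells, which are regarded as precursors of myoepithelial cells. Many smooth muscle genes are regulated by serum response factor, which binds the CArG box, an AT-rich sequence between a CC and a GG.

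Total counts ran from 20134890 to 37296640 per library, so that 3 counts, taken as the floor, correspond to 0.0804 to 0.149 CPM (counts scaled to a common library size). CPM values below also carry TMM, edgeR's factor for library composition. Basal keratin genes were detected in every library, with Krt14 between 807 and 4697 CPM. Adgra3, whose reporter defined the sort, did not follow the labels: it stood at 35.7 and 18.6 CPM in the libraries labelled Gpr125-negative, against 15.0 and 4.83 CPM for TEB-distal and 19.2 and 12.3 CPM for nipple-proximal libraries. The sort read β-galactosidase activity and not this RNA, so every direction below rests on the labels. Replicate libraries differed strongly, with a biological coefficient of variation of 0.967 over all genes, and nothing in the labels says that replicates came from separate sorts, so p-values measure only the spread between these libraries.

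Promoter sequences of 7 of the 10 genes were matched in the RefSeq table of GRCm38.p6, for which Actg2, Myh11 and Tagln are named only. The 250 bases upstream of each RefSeq start were searched for the CArG box, which reads the same on both strands. These starts can lie inside the gene spans given below, which come from another annotation (GENCODE M21). An exact box was found upstream of 1 of the 7 genes, Myl9, against 1.47% of all 32851 promoters. Allowing 1 base of the core other than A or T gave 2 of the 7, Acta2 and Myl9, against 8.59% of all promoters. The 4 boxes shown are all that this search found upstream of the 7 genes. They are printed with 10 bases on either side, 5′ to 3′ on the strand of the gene, with the box in capitals. The Myl9 windows lie on the plus strand at chr2:156775293-156775322 and chr2:156775355-156775384, with boxes 161 to 152 and 99 to 90 bases upstream of the start. The Acta2 windows lie on the minus strand at chr19:34255438-34255467 and chr19:34255388-34255417, with boxes 84 to 75 and 34 to 25 bases upstream of the RefSeq start. Both Acta2 boxes lie inside the Acta2 span given below, which begins farther upstream. The Mylk promoter, at chr16:34784700-34784999, likewise lies inside the Mylk span, so the search did not cover the start of that span. The first Myl9 box is exact and the others have 1 core base off.
Myl9 distal box: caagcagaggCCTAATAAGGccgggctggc
Myl9 proximal box: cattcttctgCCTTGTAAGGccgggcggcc
Acta2 distal box: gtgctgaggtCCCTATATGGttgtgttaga
Acta2 proximal box: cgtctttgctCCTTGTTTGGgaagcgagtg
These matches describe the sequence only, and binding was not measured.

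The members' levels differed widely from each other. Per kilobase of exon, Acta2 had the highest level of the 10 in each of the 6 libraries, with a median of 647 CPM per kilobase. It was followed by Tpm2 at 125.4, Cnn1 at 66.7 and Myl9 at 65.0 CPM per kilobase, then by Actg2 at 29.95, Myh11 at 29.6 and Tagln at 25.3. Oxtr had a median of 9.40, above Mylk at 5.21 and Lmod1 at 5.14. Apart from Acta2, neighbours in this order exchanged places between libraries, and Oxtr ranged from the 4th to the 10th place. Together the 10 genes took 0.0692% and 0.0974% of all counts of the Gpr125-negative libraries, 0.2536% and 1.26% for TEB-distal cells, and 0.266% and 0.4525% for nipple-proximal cells. The 95% Wilson intervals of these shares are narrow, from 0.06836% to 0.07005% for the lowest and from 1.256% to 1.264% for the highest, and cover counting error only. Acta2 made up 34.2% to 62.99% of the members' counts.

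**Figure D1:**
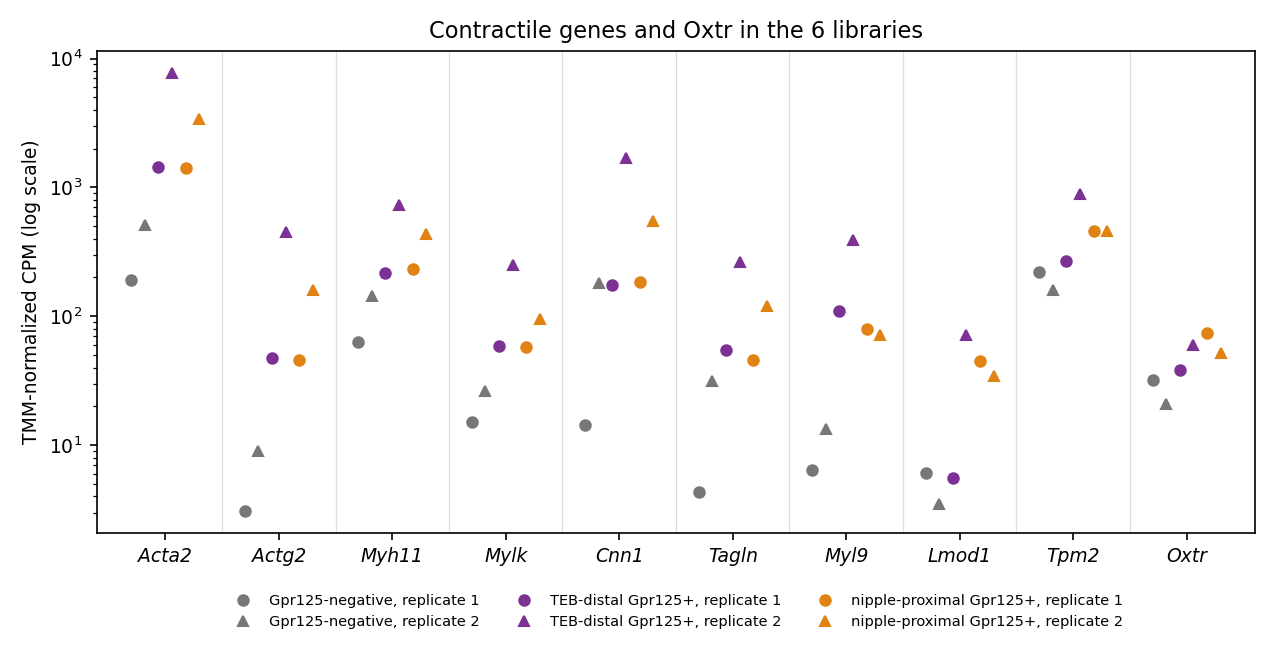
TMM-normalized CPM (log axis) of the 10 genes in each library, with circles for replicate 1 and triangles for replicate 2 of each group. TEB-distal replicate 2 is the highest library for 9 of the 10 genes, and the lowest library of each gene is one of the Gpr125-negative ones.

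The actin genes had the widest separation between Gpr125+ and Gpr125-negative cells along with Myl9. Acta2 (chr19:34241090-34255590, minus strand, GRCm38) encodes smooth muscle α-actin, the actin by which myoepithelial cells are usually recognized. It reached 190 and 511 CPM in Gpr125-negative, 1437 and 7767 CPM in TEB-distal, and 1405 and 3379 CPM in nipple-proximal libraries. All 4 Gpr125+ libraries thus lay above both Gpr125-negative ones, while the TEB-distal and nipple-proximal pairs overlapped. The TEB-distal libraries were 5.4-fold apart. The group means were 350.5 ± 227.1, 4602 ± 4476 and 2392 ± 1396 CPM (SD, n = 2 each). The log2 fold change against Gpr125-negative cells was 3.71 (SE 1.16) for TEB-distal and 2.77 (SE 1.11) for nipple-proximal cells. Fewer contractile cells in a library and less RNA per cell cannot be told apart in such bulk samples.

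Actg2 (chr6:83512905-83536265, minus strand), the gene for smooth muscle γ-actin, stood at 3.10 and 8.94 CPM in Gpr125-negative, 47.5 and 452 CPM in TEB-distal, and 45.7 and 160 CPM in nipple-proximal libraries. It had the largest fold change of the 10 genes against Gpr125-negative cells, at 5.38 (SE 1.36) on the log2 scale for TEB-distal and 4.10 (SE 1.28) for nipple-proximal cells. All 4 Gpr125+ libraries lay above both Gpr125-negative ones, and the nipple-proximal pair overlapped the TEB-distal pair. Actins are close relatives, but 0 of the 50-base windows of the Actg2 transcripts, and 0.326% of those of Acta2, occurred in another gene.

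The myosin genes followed the same arrangement. Myh11 (chr16:14194535-14291372, minus strand), the smooth muscle myosin heavy chain, had 62.7 and 143 CPM in Gpr125-negative, 218 and 725 CPM in TEB-distal, and 231 and 438 CPM in nipple-proximal libraries. Its log2 fold changes against Gpr125-negative cells were 2.20 (SE 0.89) and 1.70 (SE 0.88), smaller than those of the actins. Myl9 (chr2:156775420-156781658, plus strand) encodes the regulatory light chain, whose phosphorylation switches on contraction. It had 6.37 and 13.3 CPM in Gpr125-negative, 111 and 393 CPM in TEB-distal, and 79.4 and 71.8 CPM in nipple-proximal libraries. Myl9 is the member for which both TEB-distal libraries lay above both nipple-proximal ones, and the 3 groups did not overlap. Mylk (chr16:34745210-35002420, plus strand), the kinase that phosphorylates this light chain, had 15.1 and 26.5 CPM in Gpr125-negative, 59.0 and 251 CPM in TEB-distal, and 58.3 and 95.7 CPM in nipple-proximal libraries. Its profile was the closest of the 10 to the members' mean, with a root mean square difference of 0.241 in centred log2 CPM.

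Thin filament genes were less uniform. Cnn1 (chr9:22099216-22109630, plus strand), calponin, restrains the myosin ATPase. It had 14.4 and 180 CPM in Gpr125-negative, 175 and 1686 CPM in TEB-distal, and 185 and 553 CPM in nipple-proximal libraries. The Gpr125-negative pair differed by 12.6-fold. Its higher library was level with the lower TEB-distal and nipple-proximal ones. Tagln (chr9:45929619-45936058, minus strand), transgelin, is an actin-bundling protein and a usual early smooth muscle marker. It had 4.37 and 31.5 CPM in Gpr125-negative, 54.6 and 265 CPM in TEB-distal, and 45.8 and 121 CPM in nipple-proximal libraries, without overlap between Gpr125-negative and Gpr125+ cells. Its exons overlap those of Pcsk7, and since counting ignored strand, reads of the shared stretch cannot be assigned. In Gpr125-negative cells Pcsk7 had 1627 and 318 counts against 203 and 930 for Tagln, and in Gpr125+ cells it had 598 to 1177 counts against 932 to 7775 for Tagln.

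Lmod1 (chr1:135324807-135368065, plus strand), leiomodin, nucleates actin filaments in smooth muscle. It had 6.09 and 3.49 CPM in Gpr125-negative, 5.54 and 71.4 CPM in TEB-distal, and 45.0 and 34.5 CPM in nipple-proximal libraries. TEB-distal replicate 1 therefore sat between both Gpr125-negative libraries, and the TEB-distal replicates were 12.9-fold apart, the widest such gap among the members. Its log2 fold change for TEB-distal against Gpr125-negative cells, 3.0 (SE 1.18) with both libraries, was 0.21 without TEB-distal replicate 2. Tpm2 (chr4:43514711-43523765, minus strand), β-tropomyosin, winds along the actin filament. It had 221 and 160 CPM in Gpr125-negative, 270 and 890 CPM in TEB-distal, and 461 and 460 CPM in nipple-proximal libraries. The nipple-proximal pair was nearly identical, and among the contractile genes the range of Tpm2 over the 6 libraries was the smallest, at 2.48 on the log2 scale.

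Oxtr (chr6:112473683-112489943, minus strand) encodes the G protein-coupled receptor through which oxytocin triggers contraction. It was present at moderate counts in every library, from 616 to 1769. The level was 32.2 and 20.9 CPM in Gpr125-negative, 38.6 and 60.2 CPM in TEB-distal, and 74.8 and 51.5 CPM in nipple-proximal libraries. Both Gpr125+ groups lay above Gpr125-negative cells, though the lowest TEB-distal library exceeded the highest Gpr125-negative one by less than the gap between the replicates of either group. Oxtr differed from the contractile genes in being highest in a nipple-proximal library and in its narrow range of 1.84 on the log2 scale, and its profile was the farthest of the 10 from the members' mean (root mean square difference 1.11). Its group means were 26.5 ± 7.99, 49.4 ± 15.3 and 63.1 ± 16.5 CPM (SD, n = 2 each).

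Do Gpr125+ cells differ from Gpr125-negative cells in these genes? In TEB-distal against Gpr125-negative cells all 10 genes had a higher mean, with a median log2 fold change of 3.08 beside 0.03 over all genes, and 7.97% of all genes had a change above that median. Both TEB-distal libraries lay above both Gpr125-negative libraries for 8 of the 10 genes, all but Cnn1 and Lmod1, as they did for 14.0% of all genes. By edgeR's quasi-likelihood test 7 of the 10 had an unadjusted p under 0.05 in this direction, beside 3.8% of all genes. These were Myl9, Actg2, Mylk, Acta2, Tagln, Lmod1 and Myh11, while Cnn1, Tpm2 and Oxtr did not reach it. None of the 10 passed after adjustment over all genes at an FDR of 0.1 and a 2-fold change, with edgeR FDR values from 0.803 to 1, and neither did any other gene (0.0% called).

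In nipple-proximal against Gpr125-negative cells all 10 genes again had a higher mean, with a median log2 fold change of 2.07 beside −0.00315 over all genes, and 9.35% of all genes lay above that median. Both nipple-proximal libraries lay above both Gpr125-negative ones for all 10 genes, compared with 19.9% of all genes. Unadjusted edgeR p-values were under 0.05 for 4 of the 10, beside 2.62% of all genes, namely Myl9, Actg2, Lmod1 and Acta2. The edgeR FDR was 1 for each member and no gene was called (0.0%). The 2 comparisons share the Gpr125-negative libraries and are not independent. With both Gpr125+ populations set against Gpr125-negative cells, the 4 Gpr125+ libraries lay above both Gpr125-negative ones for 8 of the 10 genes, against 7.66% of all genes, and 7 had an unadjusted edgeR p under 0.05, against 3.05%. In this contrast the median log2 fold change was 2.64, the members' edgeR FDR was 0.882 to 0.965, and 0.0% of genes were called.

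**Figure D2:**
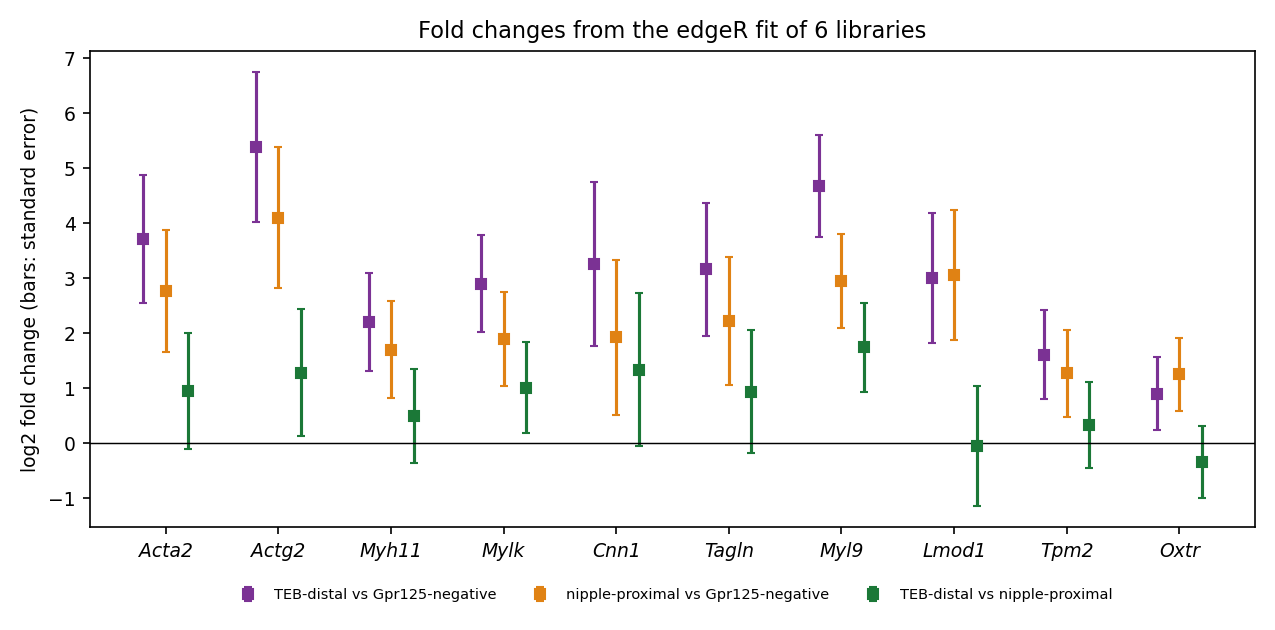
Log2 fold changes of the 10 genes (y axis) in 3 comparisons from the edgeR fit of all 6 libraries, with bars for the standard error. Against Gpr125-negative cells every gene is above 0 in both Gpr125+ populations, from 0.90 for Oxtr to 5.38 for Actg2 in TEB-distal cells, while the differences between the Gpr125+ populations run from −0.35 to 1.74.

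Whether any member was called depended on the test and on the filter for low counts. With every gene of at least 1 count in the fit, edgeR called Actg2 and Myl9 in TEB-distal cells and Actg2 in nipple-proximal cells. Of all 29282 genes in that fit, 43 and 19 were called as higher in these comparisons with Gpr125-negative cells. DESeq2, the tool of the original analysis, was first fitted to the 6 libraries. It called 4 of the 10 genes as higher in TEB-distal than in Gpr125-negative cells, against 3.23% of the genes for which it gave an adjusted p. They were Myl9 (DESeq2 adjusted p = 0.000194), Actg2 (0.00182), Acta2 (0.0302) and Mylk (0.0821). Fitted to the 4 compared libraries alone, DESeq2 kept Actg2 (adjusted p = 0.00975) and Myl9 (0.0111) and lost Acta2 (0.107) and Mylk (0.283). This fit called 395 genes as higher, of 55291 symbols including those without an adjusted p. In nipple-proximal against Gpr125-negative cells DESeq2 on the 6 libraries called 1 gene, Actg2 (DESeq2 adjusted p = 0.096), against 1.12% called as higher. On the 4 libraries alone it called Actg2 and Lmod1, among 168 of the 55291 symbols called as higher. For both Gpr125+ populations together, on the 6 libraries, it called 4, Myl9 (DESeq2 adjusted p = 0.00104), Actg2 (0.0021), Acta2 (0.0358) and Lmod1 (0.0977), against 2.83% called as higher. Oxtr, Cnn1, Tagln, Myh11 and Tpm2 were called in none of these fits. With 2 libraries a group an exact permutation test of 1 gene cannot go below p = 0.333, or 0.0667 for 4 libraries against 2.

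Did TEB-distal and nipple-proximal cells differ? The TEB-distal mean was higher for 8 of the 10 genes, with a median log2 difference of 0.94 beside 0.06 over all genes, and lower for Lmod1 (−0.05, SE 1.09) and Oxtr (−0.35, SE 0.66). No member had an unadjusted edgeR p under 0.05, compared with 0.747% of all genes in the TEB-distal direction, and the edgeR FDR was 1 for each (0.0% of genes called). DESeq2 called none of the 10 either, against 41 genes called higher (0.236%) and 85 called lower in TEB-distal cells. Myl9 came nearest, with a log2 difference of 1.74 (SE 0.82), and it was the 1 member without overlap between both pairs, as were 15.2% of all genes.

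These differences rested on TEB-distal replicate 2. That library was the highest of the 6 for each of the 9 contractile genes and exceeded TEB-distal replicate 1 by 3.3-fold (Tpm2) to 12.9-fold (Lmod1), but by 1.56-fold for Oxtr. The median fold between replicates over the 10 genes was 4.55 for TEB-distal, 2.18 for Gpr125-negative and 1.76 for nipple-proximal libraries, beside medians over all genes of 1.82, 2.15 and 1.33. Without TEB-distal replicate 2, the log2 difference from nipple-proximal cells was negative for 9 of the 10 genes, from −2.84 for Lmod1 to −0.39 for Mylk, with a median of −0.721, and Myl9 alone stayed positive at 0.55. Without TEB-distal replicate 1 instead, all 10 were positive. Against Gpr125-negative cells, the median without TEB-distal replicate 2 was 1.29, with Cnn1 at 0.85, Tpm2 at 0.50 and Lmod1 at 0.21, while Actg2 stayed at 2.98 and Myl9 at 3.50.

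**Figure D3:**
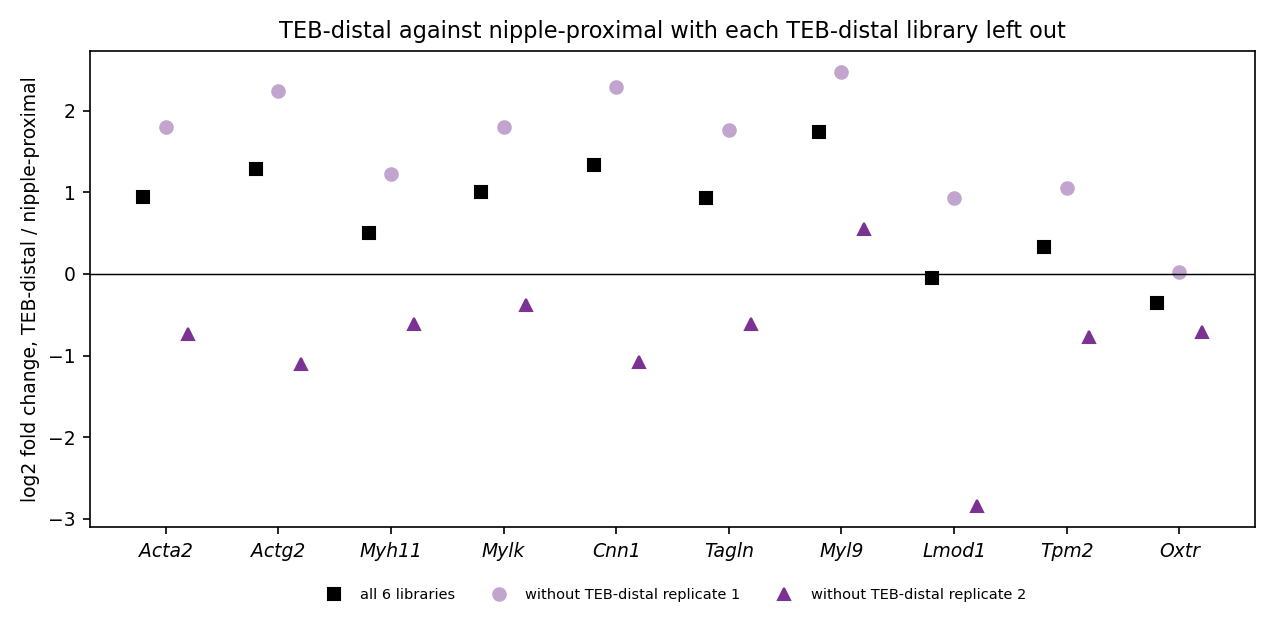
Log2 fold change of each gene in TEB-distal against nipple-proximal cells with all 6 libraries (squares), without TEB-distal replicate 1 (circles) and without TEB-distal replicate 2 (triangles). Leaving out replicate 2 puts 9 of the 10 genes below 0, and Myl9 remains above it at 0.55.

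Basal keratins also differed between the TEB-distal libraries, so the members were set against Krt14, a choice made after the values were seen. Krt14 encodes a basal cell keratin and had 1490 and 1194 CPM in Gpr125-negative, 807 and 4697 CPM in TEB-distal, and 3404 and 4257 CPM in nipple-proximal libraries. As a percent of Krt14, Acta2 stood at 178% and 165% in TEB-distal libraries, against 41.3% and 79.4% in nipple-proximal and 12.7% and 42.8% in Gpr125-negative ones. The TEB-distal libraries, 5.4-fold apart in Acta2 CPM, were thus nearly level on this scale. Myl9 stood at 13.7% and 8.36% of Krt14 in TEB-distal, 2.33% and 1.69% in nipple-proximal, and 0.428% and 1.11% in Gpr125-negative libraries. Actg2 stood at 5.89% and 9.63%, 1.34% and 3.76%, and 0.208% and 0.749% in the same order.

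Relative to Krt14, both TEB-distal libraries exceeded both nipple-proximal ones for 8 of the 10 genes, all but Lmod1 and Oxtr, compared with 22.9% of all genes. The count was 7 relative to Krt17, beside 15.1% of all genes, and 6 relative to Krt5, beside 24.3%. All genes share this denominator, and Krt14 itself was low in TEB-distal replicate 1, so the genes of a library move together on this scale. The summed members came to 300% and 267% of Krt14 in TEB-distal, 77.3% and 126% in nipple-proximal, and 37.3% and 92% in Gpr125-negative libraries. On this scale 3 of the 10 genes (Actg2, Myl9 and Lmod1) were higher in all 4 Gpr125+ libraries than in Gpr125-negative ones, beside 2.92% of all genes. In CPM the corresponding values were 8 of the 10 and 7.66%, so fewer separated on this scale both among the members and among all genes. Oxtr overlapped in all groups, at 2.16% and 1.75% of Krt14 in Gpr125-negative, 4.79% and 1.28% in TEB-distal, and 2.2% and 1.21% in nipple-proximal libraries.

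**Figure D4:**
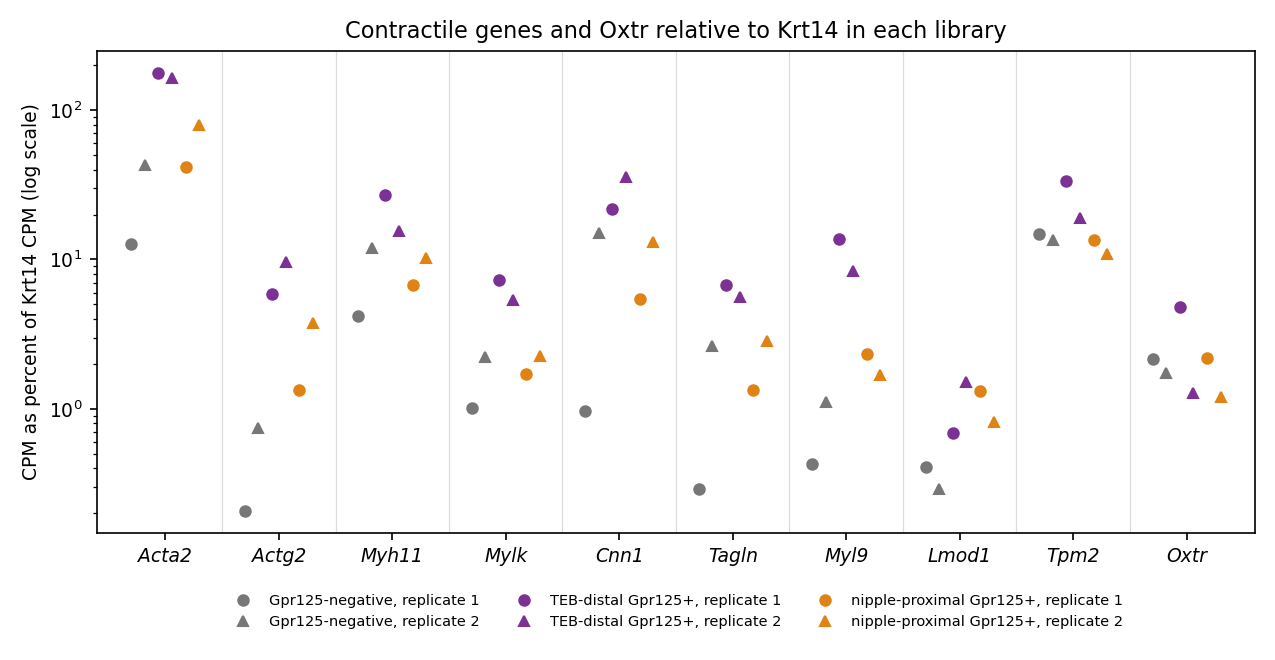
CPM of each gene as a percent of Krt14 CPM in the same library (log axis), with circles for replicate 1 and triangles for replicate 2. Acta2 lies at 178% and 165% for TEB-distal and at 41.3% and 79.4% for nipple-proximal cells, and Oxtr overlaps in all 3 groups.

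Other genes of the contractile apparatus had a smaller median difference than the 10 members, and the difference between the lists was not tested. Of 16 further smooth muscle genes, all tested, 15 were higher in TEB-distal than in Gpr125-negative cells, with a median log2 fold change of 1.09, and 15 were higher in nipple-proximal cells, with a median of 0.991. By edgeR none was called, and an unadjusted p under 0.05 was reached by 1 higher gene (Cnn2) and 1 lower gene (Des) in TEB-distal cells and by 2 higher genes (Cnn2 and Vcl) in nipple-proximal cells. DESeq2 called Des alone, as lower in TEB-distal cells. The 3 with the highest levels were Flna, an actin crosslinker, Tpm1, α-tropomyosin, and Cnn3, a calponin found in many tissues, with log2 fold changes of 1.03 (SE 0.82), 0.84 (SE 0.90) and 0.53 (SE 0.96) in TEB-distal cells. Des, the muscle intermediate filament desmin, was the exception to the direction: it had 2.75 and 3.49 CPM in Gpr125-negative, 0.98 and 1.04 CPM in nipple-proximal libraries, and no read in either TEB-distal library. Between TEB-distal and nipple-proximal cells 9 of the 16 were higher, with a median of 0.07.

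The signalling genes between the oxytocin receptor and myosin did not share the members' direction. Of 19 genes for these steps, among them G protein, phospholipase and calcium release genes, 12 were higher in TEB-distal cells than in Gpr125-negative cells and 8 were higher in nipple-proximal cells, with medians of 0.134 and −0.186. None was called by edgeR or DESeq2, and 1 gene, Gna11, had an unadjusted edgeR p under 0.05, as lower in TEB-distal cells. Of those with the highest levels, Calm2, which encodes calmodulin, and Ppp1cb, the catalytic subunit of myosin phosphatase, had log2 fold changes of 0.39 (SE 0.94) and 0.44 (SE 1.40) in TEB-distal cells. Among serum response factor and its cofactors, 5 of 6 genes were tested and 3 were higher in each Gpr125+ population. None was called by edgeR or DESeq2 or had an unadjusted edgeR p under 0.05 (0 of 5). Srf had 21 and 17.5 CPM in Gpr125-negative, 11.2 and 49.8 CPM in TEB-distal, and 38.0 and 37.5 CPM in nipple-proximal libraries, so that it was lowest and highest in the TEB-distal pair. The other 2 with the highest levels, Elk4 and Mrtfa, had log2 fold changes of −0.63 (SE 0.69) and 0.31 (SE 0.77) in TEB-distal cells. Myocd, which encodes the smooth muscle cofactor myocardin, did not pass the filter and had reads in Gpr125-negative replicate 1 and TEB-distal replicate 2.

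Smooth muscle genes are also expressed by vascular mural cells, so markers of other cells were summed beside the members. The 10 members summed to 555.3 and 1098.6 CPM in Gpr125-negative, 2416.2 and 12560 CPM in TEB-distal, and 2630.4 and 5364.4 CPM in nipple-proximal libraries. The 9 pericyte genes summed to 11.6 to 59.2 CPM in Gpr125-negative, 12.0 to 35.5 in TEB-distal and 36.6 to 63.2 in nipple-proximal libraries. Rgs5, Cspg4, Kcnj8, Abcc9 and Higd1b had no read in either TEB-distal library, and Kcnj8, Abcc9 and Higd1b were at or near 0 in the other libraries too. Rgs5 also had no read in Gpr125-negative replicate 1, and Cspg4 none in nipple-proximal replicate 1. DESeq2 called Rgs5 and Cspg4 as lower in TEB-distal than in Gpr125-negative cells. Of the 6 pericyte genes tested by edgeR, 2 (Ndufa4l2 and Notch3) were higher in each Gpr125+ population. Mcam, the pericyte gene of highest level, overlapped in all 3 groups. Ndufa4l2 had the members' direction, with 0.947 and 2.57 CPM in Gpr125-negative, 1.40 and 7.22 CPM in TEB-distal, and 22.8 and 26.0 CPM in nipple-proximal libraries, and DESeq2 called it higher in nipple-proximal cells. The part of mural cells in the members' difference was not tested. The 8 endothelial genes were the marker list that differed most between the groups, at 751 to 860 CPM in Gpr125-negative, 13.7 to 16.9 in TEB-distal and 19.4 to 122 in nipple-proximal libraries. All 8 were lower in both Gpr125+ populations, 7 of them with an unadjusted edgeR p under 0.05 in TEB-distal cells, where DESeq2 called 7, and their part in the members' difference was not tested. Pecam1, the gene for CD31, stood at 43.4 and 56.2 CPM in the Gpr125-negative libraries, although cells positive for CD31 were gated out. It had 2.46 and 5.38 CPM in TEB-distal and 27.0 and 2.40 CPM in nipple-proximal libraries. The Gpr125-negative libraries therefore cannot be read as basal cells alone.

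The 4 basal genes Krt5, Krt14, Krt17 and Trp63 summed to 2619 to 3065 CPM in Gpr125-negative, 1876 to 11433 in TEB-distal and 7324.5 to 10082 in nipple-proximal libraries. The 2 libraries with the highest members, TEB-distal replicate 2 and nipple-proximal replicate 2, also had the highest sums of these basal genes, carried by Krt14 and Krt17, and the part of basal cell content was not tested. Krt5 was highest in nipple-proximal replicate 1, at 922 CPM. Trp63, the gene for the basal transcription factor p63, was highest in Gpr125-negative replicate 1, at 58.1 CPM. Gpr125-negative replicate 2, at 8.40 CPM, lay within the range of the Gpr125+ libraries, 6.47 to 17.6 CPM. The 10 luminal genes summed to 1430 to 2540.5, 2707 to 2905 and 2203 to 2908 CPM in the same order of groups. Within this list the TEB-distal libraries differed, with Prlr at 116.3 CPM in replicate 1 and 0 in replicate 2. In the same order Esr1 stood at 31.9 and 0.0681, Csn3 at 54.35 and 11.1, and Epcam at 1072 and 430 CPM. Krt18 and Kit were also higher in replicate 1, while Krt8, Krt19, Elf5 and Pgr were higher in replicate 2. The part of luminal RNA was not tested. By the same groups, the fibroblast genes summed to 28.6 to 145, 89.8 to 173 and 52.9 to 69.0 CPM. The leukocyte genes summed to 89.5 to 97.5, 144 to 315 and 140 to 236 CPM. The highest library of both lists was again TEB-distal replicate 2, where Cd68 made up 290 CPM of the leukocyte sum. Cd79a (4.97 CPM) and Cd3e (0.204 CPM) were also highest there. Ptprc, the gene for CD45, was highest in TEB-distal replicate 1, at 9.24 CPM against 2.08 in replicate 2. Cd74 was highest in nipple-proximal replicate 1, at 45.8 CPM, and Lyz2 in Gpr125-negative replicate 2, at 10.4 CPM. Of the 8 fibroblast genes 7 were tested. All 7 were higher in TEB-distal than in Gpr125-negative cells (median log2 fold change 2.01) and nipple-proximal cells (2.83). In nipple-proximal cells 2 of the 7 were higher than in Gpr125-negative cells (median −0.389). Against Gpr125-negative cells, Col1a2 alone had an unadjusted edgeR p under 0.05, in TEB-distal cells, where DESeq2 called it higher. The part of fibroblast RNA was not tested. Skeletal muscle genes stayed at or under 5.01 CPM and adipocyte genes at or under 0.511 CPM in every library.

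**Figure D5:**
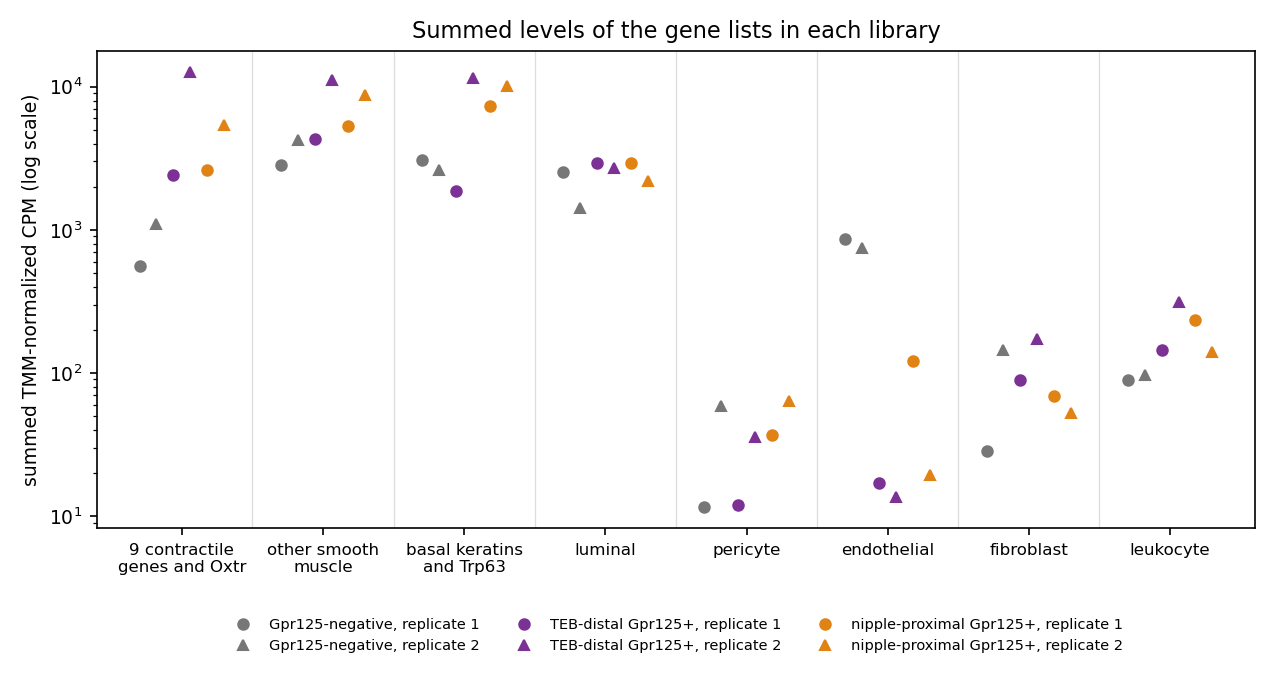
Summed TMM-normalized CPM (log axis) of the 10 genes and of 7 other gene lists in each library, with circles for replicate 1 and triangles for replicate 2. The 10 genes sum to 555.3 and 1098.6 CPM in Gpr125-negative cells and to at least 2416.2 CPM in the others, while endothelial genes run the other way, at 751 CPM or more and at most 122 CPM.

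The genes whose profiles were most like those of the members were ranked by the root mean square difference in centred log2 CPM over the 6 libraries. Among 4596 other genes with a mean log2 CPM of at least 5, the closest to the members' mean were Tgfb1i1 (0.32), Entpd1 (0.424), Palld (0.567), Shroom3 (0.6) and Dusp5 (0.609). Tgfb1i1, which encodes the focal adhesion protein Hic-5, had 22 and 51.2 CPM in Gpr125-negative, 68.8 and 302 CPM in TEB-distal, and 121 and 163 CPM in nipple-proximal libraries. For Oxtr, among 12281 genes with a mean log2 CPM of at least 0, the closest were Smap2 (0.0733), Wipf2 (0.125), Kctd11 (0.156), Irs2 (0.167) and Cdca4 (0.19). Irs2, an adaptor of insulin signalling, had 271 and 194 CPM in Gpr125-negative, 322 and 700 CPM in TEB-distal, and 648 and 512 CPM in nipple-proximal libraries. A profile over 6 libraries is close by its few values, and nothing about shared control follows from it.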

How the data were processed

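The authors prepared libraries from sorted cells with SMART-Seq HT, aligned reads to mm10 with STAR and counted them per gene with HTSeq without regard to strand. The aligner is version 2.7.3 in the submitters' processing notes, which also name CASAVA, and the paper's methods give an earlier one. The release of the gene annotation is not given in the sources used here. The deposited values are read counts per gene and library, not normalized, without molecular identifiers. The paper's methods give smaller pools of mice than the labels.

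Counts were fitted in R 4.3.3 with edgeR 4.0.16 (TMM, filterByExpr by condition, robust glmQLFit, glmQLFTest), in 1 model of 3 conditions on 6 libraries, with Benjamini-Hochberg adjustment over 17268 genes. A gene was called at an FDR under 0.1 and at least a 2-fold change, the thresholds of the original analysis for its comparisons with Gpr125-negative cells. For TEB-distal against nipple-proximal cells the paper's methods give a stricter adjusted p. The contrast of both Gpr125+ populations with Gpr125-negative cells was added here. DESeq2 1.42.0 was an alternative. Standard errors come from the F statistic. Levels per kilobase used exonic lengths of GENCODE M21 (GRCm38), which held 96.38% of the symbols. The scripts were tested on simulated data.

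The members and lists were chosen with earlier results of these data known. Named genes are the 10 members, the 3 genes of highest mean level in each pathway list, and the 5 most like the members or Oxtr. For 1 gene of a pathway list the values are not reported here. Des, Cnn2, Vcl, Gna11, Myocd, Col1a2, Pecam1, the luminal, leukocyte and pericyte genes and the keratins were named after their values were seen.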

Additional observations from a re-analysis of the deposited data

How the results depend on the processing

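The alternatives were DESeq2's size factors in place of TMM, no filter beyond 1 count, DESeq2, fits of the 4 compared libraries alone, the replicate number as a block, and each library left out. Against Gpr125-negative cells all 10 members kept a higher mean under each alternative run, for TEB-distal, nipple-proximal and both populations. With all 29282 genes of at least 1 count, edgeR called 137 for TEB-distal and 58 for nipple-proximal against Gpr125-negative cells. It called 39 for TEB-distal against nipple-proximal cells and 244 for both populations against Gpr125-negative cells. In this order 2 members (Actg2 and Myl9), 1 (Actg2), 0 and 2 were among them. DESeq2 on 6 libraries called 943, 316, 126 and 809 genes, with 4, 1, 0 and 4 members. DESeq2 on 4 libraries called 682, 317 and 355 genes in the first 3, with 2 (Actg2 and Myl9), 2 (Actg2 and Lmod1) and 0 members. The counts of 682 and 317 genes equal those reported in the paper's methods. Leaving out each library gave 0 to 579, 0 to 185, 0 and 0 to 713 genes, the highest without Gpr125-negative replicate 1, and no members. The members' median ranged from 1.29 to 3.98, 1.43 to 3.14, −0.721 to 1.78 and 1.66 to 3.49.

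Directions turned between TEB-distal and nipple-proximal cells. Lmod1 was at 0.0701 with DESeq2's size factors, 0.0549 with DESeq2 on 6 libraries and 0.0153 with edgeR on 4. Leaving out each library gave −0.735 to 1.8 for Acta2, −1.11 to 2.45 for Actg2, −0.615 to 1.22 for Myh11, −0.385 to 1.8 for Mylk, −1.08 to 2.33 for Cnn1, −0.612 to 1.8 for Tagln, −2.84 to 0.935 for Lmod1, −0.772 to 1.05 for Tpm2 and −0.708 to 0.0231 for Oxtr. Apart from Oxtr and Lmod1, the value below 0 came without TEB-distal replicate 2. DESeq2's size factors moved the median of all genes to −0.168, 0.191 and −0.128 in nipple-proximal against Gpr125-negative, TEB-distal against nipple-proximal and both populations.

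Deviations of equally numbered libraries correlated at −0.0347, 0.194 and −0.00495, so the numbers were not taken to pair the libraries. With the replicate block edgeR called 0 genes and 0 members, and Acta2 and Actg2 were at 3.46 and 4.86 for TEB-distal against Gpr125-negative cells. For both Gpr125+ populations against Gpr125-negative cells, the count of members without overlap was 8 to 10 when each library was left out. This alternative was chosen after seeing the data. Leaving out a library cannot lower such a count, so it is no check on the result with all libraries. The share of all genes, 7.66% with all libraries, was not recomputed. With 2 libraries a group and replicates several-fold apart, differences of the size seen between TEB-distal and nipple-proximal cells could not be resolved.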
